A study of Mus musculus with 4 samples.

Results

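Large stretches of the mouse genome held no strong RNA polymerase II (Pol II) signal in any of the 4 libraries of this series, and 689 such windows of 1 Mb are described here. Chromosomes 1 to 19 were divided into 2473 windows of 1 Mb, of which 2379 held at least 500 tags over the 4 libraries together. A tag is the position of an aligned read, counted once per position and strand. A window was kept when none of its 250 bp bins reached 20 tags over the 4 libraries. A bin with 20 or more tags is called a peak bin, and 1690 windows held at least 1 of them. The choice rests on the summed tags of the 4 libraries, so the low level of the 689 windows and the absence of dense bins in them are descriptions of the rule. How the tags were divided among the libraries was not itself used to choose them, but the choice is not independent of it. Near peak bins, which the rule leaves out, the control library held a larger share of its tags than each knockdown library. Ratios over windows chosen on other libraries are also given at the end.

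Pol II was immunoprecipitated from V6.5 mouse embryonic stem cells (C57BL/6-129 background) with an antibody to the N-terminus of its largest subunit, Rpb1, and the recovered DNA was sequenced (ChIP-seq). A control hairpin RNA (shControl) or a hairpin to knock down NelfE (shNelfE), Spt4 (shSpt4) or Spt5 (shSpt5) had been introduced about 4 days before fixation, which makes 4 groups. All 4, the control included, received 1 µM flavopiridol for 1 h. Each group was 1 library, so no difference had a replicate check and no test between groups was possible. Cells of the 3 knockdown libraries had 2 passages away from feeder cells and were sequenced on 1 flow cell, per the labels. Control cells had 1 such passage and were sequenced on another flow cell, so flow cell, passage and hairpin cannot be told apart in any ratio to it. Knockdown of the targets was not measured in these libraries.

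Pol II transcribes messenger RNA genes and many short noncoding RNAs. DSIF, made of Spt4 and Spt5, and NELF, to which NelfE belongs, attach to Pol II early in transcription and help hold it near promoters. The kinase Cdk9, the target of flavopiridol, releases it from there. In ChIP-seq, windows far from any bound site mostly hold DNA carried through the precipitation without being bound. Such windows are therefore a common reference for background, although weak or spread-out binding in them cannot be told from background without a library of input DNA, which was not used here. Tag positions are on the build mm8 and the gene table used for names is on another build, so windows are given by position, without gene names or sequence.

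The windows without a peak bin made up 28.96% of the 2379 windows and held 12.9% of their tags. They held between 538 and 6562 tags, with a median of 1915, where windows with a peak bin held between 603 and 30028, with a median of 5339.5. The ranges overlapped, and 55 windows with a peak bin held fewer tags than the median window without one. The fullest 250 bp bin held a median of 8 tags over the 4 libraries, against 131 in windows with a peak bin. In 393 of the 689 it held fewer than 10 tags. Within a single library, 9 bins of these windows reached 10 tags in shControl, 1 in shNelfE and none in shSpt4 or shSpt5. The windows thus lack peaks only down to the limit of 20 summed tags, and may hold weaker ones. At the edge of the rule, the 42 windows whose fullest bin held 18 or 19 tags had a median of 3170.5 tags, and the 36 windows at 20 or 21 had 3047.5. The median ratios of these groups to the control were 1.29 and 1.33 in shSpt5, 1.17 and 1.20 in shSpt4 and 1.16 and 1.17 in shNelfE. Just inside stood chromosome 8, 121000001 to 122000000 (6562 tags, fullest bin 19), chromosome 6, 31000001 to 32000000 (5532 tags, 19) and chromosome 1, 40000001 to 41000000 (4743 tags, 19). Just outside stood chromosome 1, 77000001 to 78000000 (4829 tags, fullest bin 20), chromosome 14, 32000001 to 33000000 (4704 tags, 20) and chromosome 19, 59000001 to 60000000 (4619 tags, 20).

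These windows lay on all 19 autosomes, in unequal shares. Chromosome 15 had the largest share, with 37 of its 101 windows (36.6%), and chromosome 19 the smallest, with 11 of 59 (18.6%). Along the chromosomes, they made up between 28.99% and 33.5% of the windows in each of the first 4 of 5 equal parts and 20.8% in the last part. They fell into 363 runs of neighbouring windows, 212 of them a single window, and 24 runs of 5 Mb or more held 157 windows. The longest run, of 11 Mb, was chromosome 15, 14000001 to 25000000, and the next, of 10 Mb, was chromosome 14, 87000001 to 97000000. Runs of 9 Mb lay at chromosome 3, 42000001 to 51000000, and at chromosome 5, 55000001 to 64000000.

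The knockdown libraries had a larger share of their tags in these windows than the control library. The share was 10.16% in shControl (exact 95% interval 10.13 to 10.19%), 12.60% in shNelfE (12.56 to 12.63%), 13.00% in shSpt4 (12.96 to 13.04%) and 14.99% in shSpt5 (14.95 to 15.03%). These shares rest on 322066, 370049, 344153 and 467096 tags. Intervals cover counting error only, and PCR copies are not independent molecules. Scaled to 1000000 kept tags of the library (normalised tags), the mean window held 147 in shControl, 183 in shNelfE, 189 in shSpt4 and 218 in shSpt5. Windows with a peak bin held means of 521, 506, 503 and 491 in the same order, so the order of the libraries was the opposite there. The 2 sets together held 97.9 to 98.3% of each library's kept tags, so this reversal follows from the scaling. The mean with a peak bin was 3.54 times that without one in shControl and 2.77 times in shNelfE. It was 2.66 times in shSpt4 and 2.26 times in shSpt5. No scaling changes this contrast within each library. As arithmetic, the mean of the windows without a peak bin multiplied by all 2379 windows equals 35.7% of the tags that shControl held in those windows, 44.3% in shNelfE, 45.8% in shSpt4 and 52.9% in shSpt5.

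**Figure D1:**
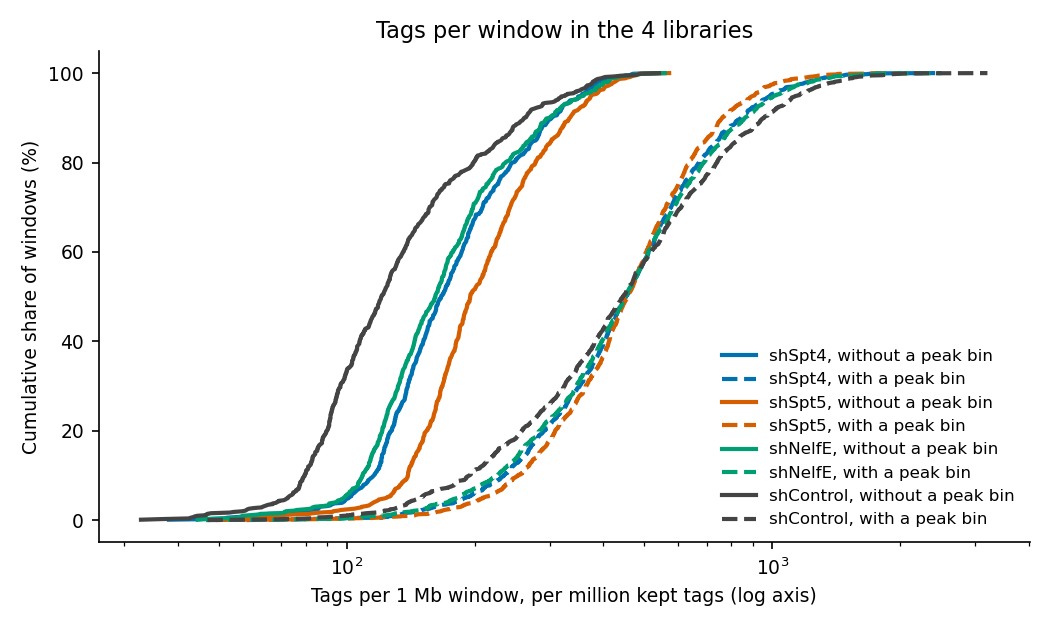
Cumulative share of 1 Mb windows (vertical axis, %) by tags per window per 1000000 kept tags (horizontal log axis), for the 689 windows without a peak bin (solid lines) and the 1690 with one (dashed lines) in each library. Without a peak bin the curve of shControl lies furthest left and that of shSpt5 furthest right, with medians of 121 and 195 normalised tags.

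Window by window, nearly all of the 689 were higher in the knockdown libraries than in shControl. For shSpt5 the summed tags gave a ratio of 1.48 (1.47 to 1.48), the median window was at 1.61, and 684 of 689 windows lay above 1. The ratio was 1.28 (1.27 to 1.29) in shSpt4, with a median of 1.35 and 671 windows above 1. In shNelfE it was 1.24 (1.23 to 1.246), with a median of 1.29 and 685 windows above 1. Over all 2379 windows the medians were 1.13, 1.08 and 1.07, and in the windows with a peak bin 1.02, 1.01 and 1.01. Of all 2379 windows, 66.8%, 65.5% and 65.7% lay above 1, beside 99.3%, 97.4% and 99.4% of the 689. Because the tags are scaled to each library's total, a larger share in some windows goes with a smaller share in others.

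A window was called higher where its normalised tags were at least 5 to 4 of the other library, and lower at a ratio of 0.8 or less. In shSpt5, 615 windows without a peak bin (89.3%) were called higher, where 37.6% of all windows were. For shSpt4 there were 492 such windows (71.4%), against 26.7% of all windows, and for shNelfE 426 (61.8%), against 21.1%. None of the 689 was called lower in any of these comparisons, where 8.28% of all windows were in shSpt5, 1.68% in shSpt4 and 0.21% in shNelfE. The shares of higher windows were above the background in all 3 comparisons, which use the same control library. The median window held 382 tags in shControl, so that the exact interval of a single window is wide. It lay wholly above 1 in 664 windows for shSpt5, in 621 for shSpt4 and in 614 for shNelfE, and wholly below 1 in none. Among all 2379 windows, the interval lay wholly above 1 in 1307, 1134 and 1023, in the same order. It lay wholly below 1 in 566, 482 and 420 of them.

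**Figure D2:**
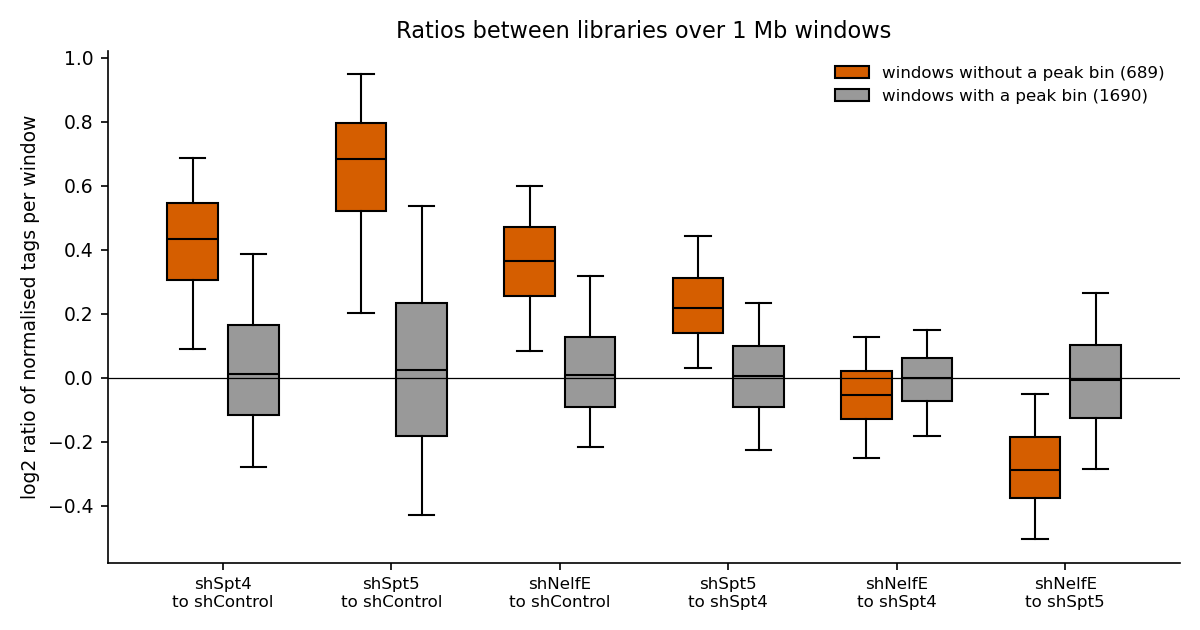
log2 ratio of normalised tags per window (vertical axis) for the 6 pairs of libraries (horizontal axis), in the 689 windows without a peak bin (orange) and the 1690 with one (grey). Boxes span the quartiles with the median as a line, and whiskers run from the 5th to the 95th percentile. The orange boxes of the 3 ratios to shControl lie above the line at 0.

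The knockdown libraries, which shared a flow cell, also differed among themselves. The ratio of shSpt5 to shSpt4 was 1.15 (1.15 to 1.16), and 669 of 689 windows (97.1%) lay above 1, against 64.4% of all windows. Of the 689, 152 (22.1%) were called higher, against 7.23% of all windows, and none lower, against 0.504%. For shNelfE to shSpt5 the ratio was 0.840 (0.837 to 0.844). It lay below 1 in 671 windows, and in 1550 of all 2379 windows. Of the 689, 273 (39.6%) were called lower, against 13.5% of all windows, and none higher, against 1.81%. The shNelfE and shSpt4 libraries were nearest to each other, with a ratio of 0.969 (0.964 to 0.973). For them 473 of the 689 windows lay below 1, and 1328 of all 2379. For this pair 10 windows (1.45%) were called lower, against 0.757% of all windows, and none higher, against 0.042%. The order of the median normalised tags per window was thus shSpt5 (195), shSpt4 (167), shNelfE (161) and shControl (121).

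Within the 689 windows, repeated positions were most frequent in shSpt5 and least frequent in shControl. Reduced to 1 tag each for the ratios, they made up 16.1% of the reads in these windows in shSpt5 (16.0 to 16.2%), 8.45% in shNelfE (8.36 to 8.54%), 6.59% in shSpt4 (6.51 to 6.67%) and 6.36% in shControl (6.28 to 6.45%). In windows with a peak bin they made up 18.1%, 10.5%, 8.38% and 9.39%, so that shSpt4 was lowest there. The part of these differences in the ratios was not tested, but with all reads kept the ratios to the control were 1.52 in shSpt5, 1.32 in shSpt4 and 1.27 in shNelfE, over the 639 windows that met the rule with those reads.

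The ratio to the control was not the same in all of the 689 windows. Its standard deviation on the log2 scale was 0.15 in shNelfE, 0.18 in shSpt4 and 0.23 in shSpt5. Counting error alone gives 0.101, 0.102 and 0.095. For shNelfE to shSpt4 the spread was 0.11 beside 0.097 from counting. With the variance of counting taken off, 0.055 was left for that pair. For the ratios to the control, 0.117 was left in shNelfE, 0.152 in shSpt4 and 0.207 in shSpt5. Ratios of neighbouring windows resembled each other weakly. Over 326 pairs of neighbours, Pearson's r of the log2 ratios was 0.35 for shSpt5 (Spearman's rho 0.28), 0.20 for shSpt4 (0.16) and 0.08 for shNelfE (0.05). Among windows with a peak bin, over 1302 pairs, Pearson's r was 0.52 for shSpt5, 0.52 for shSpt4 and 0.42 for shNelfE. Counting error lowers such correlations, and more so in windows with few tags. Neighbouring windows share their libraries and may share base composition, so these are descriptions.

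The classes of windows with fewer tags had the higher ratios. To keep the classes apart from the tags compared, windows were put in 4 classes by their tags in the pair of libraries outside each comparison. From the sparsest to the fullest class the shSpt5 ratio was 1.72 (1.70 to 1.74), 1.68 (1.67 to 1.70), 1.59 (1.58 to 1.61) and 1.26 (1.248 to 1.27). For shSpt4 it was 1.42 (1.40 to 1.44), 1.41 (1.39 to 1.42), 1.35 (1.34 to 1.37) and 1.15 (1.14 to 1.16). In shNelfE the classes gave 1.35 (1.33 to 1.37), 1.34 (1.33 to 1.36), 1.30 (1.29 to 1.31) and 1.13 (1.13 to 1.14). The drop was thus mostly in the fullest class, and it does not depend on how libraries are scaled. Across the 689 windows, Pearson's r of the log2 ratio with the log2 tags of the other pair of libraries was -0.56 for shNelfE, -0.58 for shSpt4 and -0.69 for shSpt5. The points share their libraries and the covered length of each window.

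Windows with a peak bin and equally few tags had lower ratios to the control than windows without one. In the second class, the shSpt5 ratio was 1.36 (1.33 to 1.39) over 37 windows with a peak bin and 1.68 (1.67 to 1.70) over 172 without. For shSpt4 these values were 1.24 (1.21 to 1.27) over 35 windows and 1.41 over 172, and for shNelfE 1.18 (1.15 to 1.21) over 34 and 1.34 over 173. The intervals do not overlap in this class. Peak bins were part of these sums, and near them the ratios were 0.652 in shSpt5, 0.842 in shSpt4 and 0.792 in shNelfE. A lower sum thus follows at least in part from how the windows were split, and is a description.

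With peak bins and the 2000 bp on each side of them left out, the ratio still fell from class to class as the fullest bin rose. These classes are set by the rule's own measure and are a description. In shSpt5 the ratio was 1.70 (1.68 to 1.72) in the 171 windows whose fullest bin held 4 to 6 tags, 1.58 (1.56 to 1.59) at 7 to 9, 1.41 (1.40 to 1.42) at 10 to 14 and 1.29 (1.28 to 1.30) at 15 to 19. Beyond the rule's limit it went on to 1.23 (1.22 to 1.24) at 20 to 29 and to 1.01 (1.01 to 1.01) in the 928 windows at 120 or more. The shSpt4 ratio fell from 1.42 (1.40 to 1.44) to 1.16 (1.15 to 1.18) over the classes up to 19 tags and reached 0.980 (0.977 to 0.983) at 120 or more. For shNelfE it fell from 1.34 (1.33 to 1.36) to 1.15 (1.14 to 1.17) and then to 1.02 (1.02 to 1.02). There was no step at the limit of 20 tags. Outside their peak bins, all 1690 windows with a peak bin together had ratios of 1.06 (1.05 to 1.06) in shSpt5, 1.01 (1.01 to 1.01) in shSpt4 and 1.04 (1.04 to 1.04) in shNelfE. Near the peak bins the ratios were 0.652 (0.650 to 0.655), 0.842 (0.839 to 0.845) and 0.792 (0.789 to 0.795). Density outside the peak bins rose along the same classes, from 95.4 normalised tags per Mb in shControl at 4 to 6 tags to 448 at 120 or more.

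**Figure D3:**
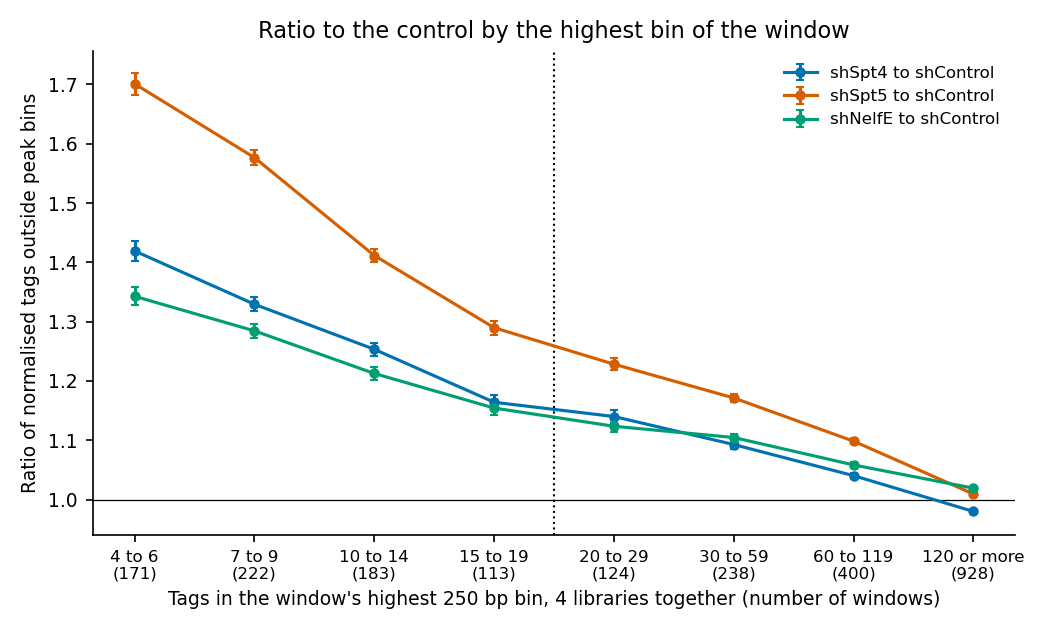
Ratio of normalised tags to shControl outside peak bins (vertical axis) in classes of windows by the tags of their fullest 250 bp bin over the 4 libraries (horizontal axis, number of windows in brackets), with exact 95% intervals of counting error. The dotted line marks the limit of 20 tags, and all 3 curves fall across it without a step.

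The same fall appeared inside the 689 windows, between single bins of 250 bp. Over the 4 libraries, 65.1% of their 2756000 bins were empty, and 820 bins in 296 windows held 10 or more tags. Bins were classed by their tags in the pair of libraries outside the comparison. Bins with none there had a shSpt5 ratio of 1.59 (1.58 to 1.59), those with 2 had 1.21 (1.19 to 1.23), and those with 6 or more had 0.702 (0.652 to 0.756). For shSpt4 the ratios were 1.35 (1.34 to 1.36), 1.12 (1.11 to 1.14) and 0.950 (0.883 to 1.02), and for shNelfE 1.29 (1.28 to 1.29), 1.13 (1.12 to 1.15) and 0.872 (0.807 to 0.943). Relative to the control, the densest bins of these windows were thus low in shSpt5 and shNelfE, and the bins without tags in the other pair were high. In shSpt4 the interval of the densest bins included 1.

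This difference between bins was present in sparse and in fuller windows alike. In the sparser 344 windows, the shSpt5 ratio was 1.78 (1.76 to 1.79) in bins with no tag in the other pair and 0.909 (0.825 to 1.00) in bins with 4 or more. In the fuller 345 it was 1.48 (1.47 to 1.49) and 0.788 (0.756 to 0.822). The shSpt4 values were 1.46 and 1.05 in sparser and 1.29 and 0.952 in fuller windows, and those of shNelfE 1.38 and 1.05, and 1.23 and 0.920. The densest bins held few tags. In the fuller windows the bins with 4 or more carried 3999 tags of shSpt5 and 5160 of shControl, against 189013 and 129934 in bins with none.

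**Figure D4:**
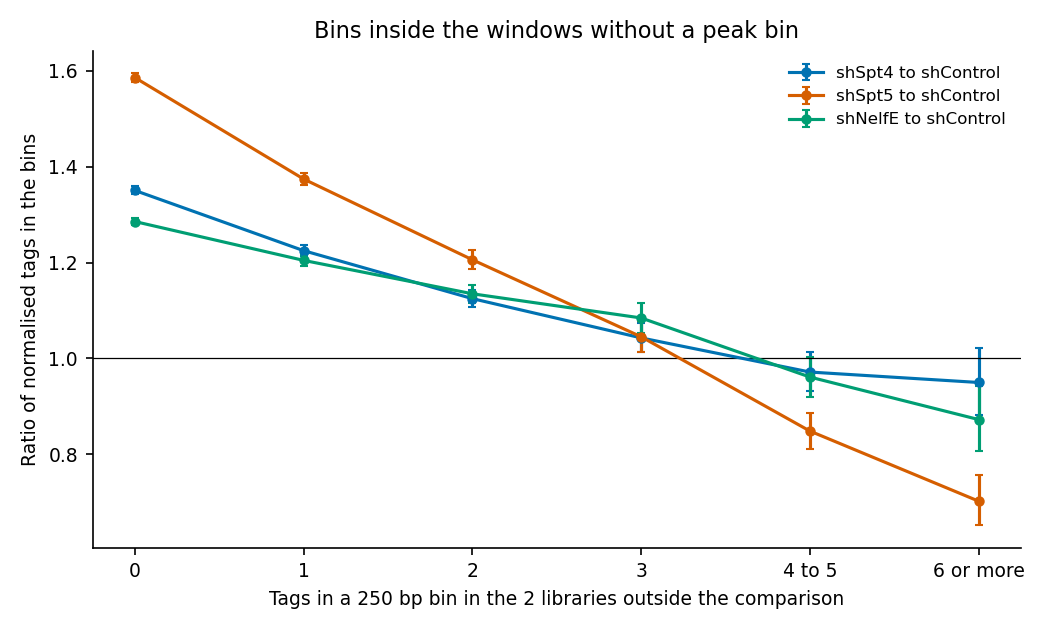
Ratio of normalised tags to shControl (vertical axis) in the 250 bp bins of the 689 windows, by the tags each bin held in the pair of libraries outside the comparison (horizontal axis), with exact 95% intervals of counting error. All 3 ratios fall from left to right, that of shSpt5 from 1.59 to 0.702.

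Tags on the 2 strands were also placed relative to each other in these windows. Around a fragment, tags on the plus strand lie upstream of those on the minus strand, so that a correlation peak at an offset of a fragment length shows tags that come from the ends of fragments at the same place. In the windows without a peak bin the highest correlation at offsets of 40 bp or more, in steps of 10 bp, was 0.0170 in shSpt5 (at 100 bp), 0.0146 in shNelfE (70 bp), 0.0136 in shControl (60 bp) and 0.0100 in shSpt4 (80 bp). In windows with a peak bin it was 0.0855, 0.112, 0.170 and 0.118. The shSpt5 library thus ranked first without peak bins and last with them. Such correlations rise with the density of tags, and shSpt5 also had the most tags and the most repeated positions in the windows without a peak bin; the part of either was not tested. In the windows without a peak bin the correlation at 80 bp was between 5.62 and 9.85 times that at 400 bp in the 4 libraries, so tags of opposite strands were paired at short range here too.

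**Figure D5:**
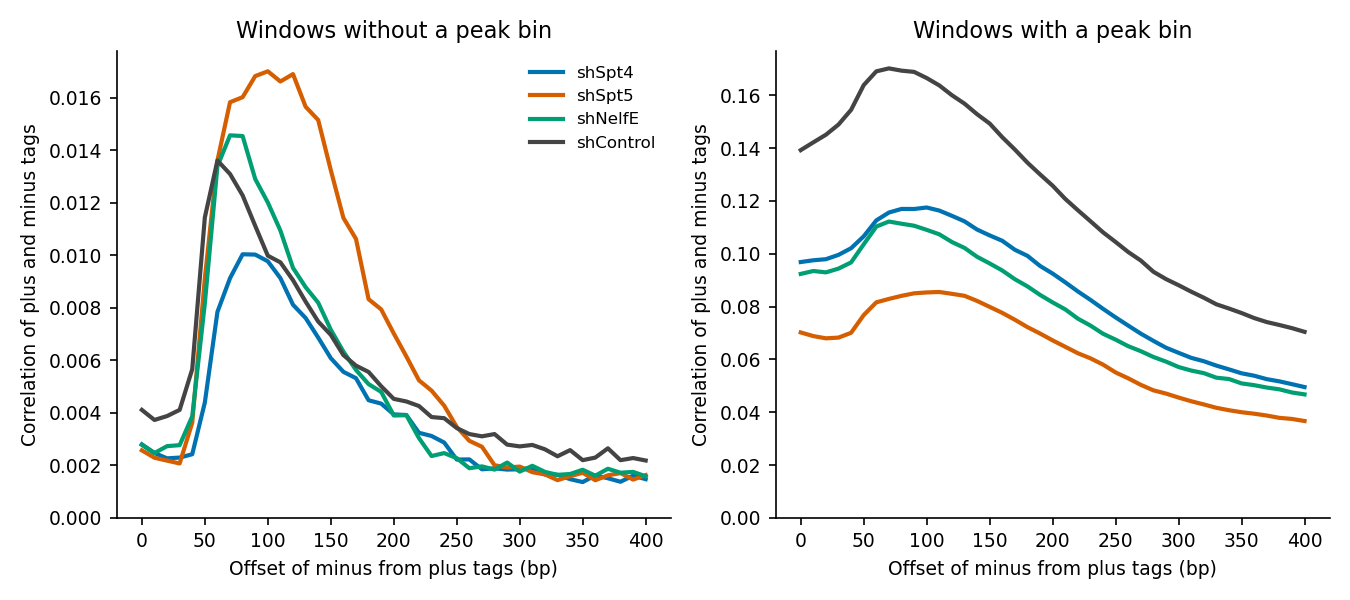
Correlation of plus-strand and minus-strand tags (vertical axes, of different scale) by the offset between them in bp (horizontal axis), for the 4 libraries in windows without a peak bin (left) and with one (right). On the left shSpt5 is highest at 0.0170, and on the right shControl is highest at 0.170.

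Levels in the 4 libraries rose and fell together over the 689 windows. Pearson's r of the log2 tags lay between 0.963 (shSpt5 with shControl) and 0.982 (shSpt4 with shNelfE), over windows that share their covered length and base composition. The size of the variation was not equal. The standard deviation over windows was 54.7% of the mean in shControl, 44.2% in shNelfE, 41.6% in shSpt4 and 37.0% in shSpt5. With counting error taken off these values were 54.5%, 44.0%, 41.4% and 36.8%. The control library thus had the lowest mean and the widest relative spread, and shSpt5 the highest mean and the narrowest.

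In the longest runs, the fullest bin held 15 tags in the run on chromosome 15, 9 in that on chromosome 14 and 11 in that on chromosome 3. In the run of 11 Mb on chromosome 15, tags per Mb were 97.2 normalised in shControl, 129 in shNelfE, 134 in shSpt4 and 160 in shSpt5. Its ratios were 1.64 (1.57 to 1.72) in shSpt5, 1.37 (1.31 to 1.44) in shSpt4 and 1.33 (1.27 to 1.39) in shNelfE, and the shSpt5 ratio of its 11 windows ran from 1.30 to 1.94. The run of 10 Mb on chromosome 14 held 85.3 normalised tags per Mb in shControl and 155 in shSpt5. There the ratios were 1.81 (1.73 to 1.90), 1.47 (1.40 to 1.55) and 1.44 (1.37 to 1.51). In the run of 9 Mb on chromosome 3 they were 1.64 (1.56 to 1.72), 1.39 (1.32 to 1.47) and 1.31 (1.248 to 1.38). All windows of these 3 runs lay above 1 in the 3 comparisons.

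In the 74 runs of 3 or more windows, the windows inside a run were sparser than those at its ends and had higher ratios. The 148 windows at the ends held a mean of 131 normalised tags in shControl, and the 175 inside held 105. The shSpt5 ratio was 1.58 (1.56 to 1.60) at the ends and 1.68 (1.66 to 1.70) inside. For shSpt4 it was 1.34 (1.33 to 1.36) and 1.41 (1.39 to 1.43), and for shNelfE 1.28 (1.27 to 1.30) and 1.34 (1.33 to 1.36). The other 366 windows stood alone or in pairs, with a mean of 174 normalised tags in shControl and ratios of 1.38 (1.38 to 1.39) in shSpt5, 1.22 (1.22 to 1.23) in shSpt4 and 1.20 (1.19 to 1.20) in shNelfE. In the 22 windows at least 4 windows from the nearest end, counted inward with the end as the first, the shSpt5 ratio was 1.72 (1.67 to 1.77).

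Every autosome showed the same directions. Over the windows without a peak bin of each chromosome, the shSpt5 ratio ran from 1.34 on chromosome 17 to 1.59 on chromosome 1. The shSpt4 ratio ran from 1.19 on chromosome 17 to 1.33 on chromosome 1, and the shNelfE ratio from 1.17 on chromosome 17 to 1.28 on chromosome 4. On all 19 autosomes shSpt5 was above shSpt4 and shNelfE was below shSpt4, the latter with ratios from 0.952 to 0.997. For shNelfE to shSpt4 the interval included 1 on chromosomes 4, 9, 13 and 19. The chromosomes share the same libraries and scaling, so they are not separate checks.

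The highest ratio of both shSpt4 and shSpt5 to the control was in 1 window, chromosome 6, 45000001 to 46000000, whose fullest bin held 5 tags. It held 235 tags in shControl, 366 in shSpt4, 516 in shSpt5 and 362 in shNelfE. Its ratios were 1.66 (1.41 to 1.97) in shNelfE, 1.87 (1.58 to 2.21) in shSpt4 and 2.23 (1.91 to 2.62) in shSpt5. The highest shNelfE ratio, 1.69 (1.41 to 2.04), was found on chromosome 2, 86000001 to 87000000, where shNelfE held 301 tags and shControl 192. That window also ranked next but one in shSpt5, at 2.10 (1.77 to 2.51), behind chromosome 2, 82000001 to 83000000, with 527 tags against 246 (2.18, 1.87 to 2.55). Among the others were chromosome 12, 120000001 to 121000000, at 1.82 (1.46 to 2.27), and chromosome 10, 103000001 to 104000000, at 1.78 (1.50 to 2.13), both in shSpt4. In shNelfE, chromosome 4, 36000001 to 37000000, stood at 1.66 (1.43 to 1.93). These extremes were chosen on the ratios given and their intervals are not adjusted for that choice.

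The lowest ratios were near 1 and mostly in windows with many tags. Chromosome 17, 85000001 to 86000000, held 1553 tags in shControl, 1233 in shSpt4, 1455 in shSpt5 and 1466 in shNelfE, and had the lowest shSpt5 ratio, 0.953 (0.887 to 1.02). Chromosome 6, 31000001 to 32000000, was next in shSpt5 at 0.968 (0.900 to 1.04) and had the lowest shNelfE ratio, 0.944 (0.877 to 1.02). Chromosome 12, 117000001 to 118000000, followed in shSpt5 at 0.972 (0.897 to 1.05). In shNelfE, chromosome 6, 99000001 to 100000000, was at 0.984 (0.915 to 1.06) and chromosome 7, 6000001 to 7000000, at 0.988 (0.897 to 1.09). The lowest shSpt4 ratio, 0.858 (0.658 to 1.12), was in the window with fewest tags, chromosome 4, 155000001 to 156000000, where 97.3% of the 1 kb tiles were empty. It was followed by chromosome 13, 45000001 to 46000000, at 0.920 (0.844 to 1.00), and chromosome 6, 135000001 to 136000000, at 0.930 (0.857 to 1.01). Tiles past the end of a chromosome count as empty here, since chromosome lengths were not used.

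The fullest and the emptiest windows differed in the share of their 1 kb tiles that held tags. Chromosome 8, 121000001 to 122000000, was the fullest, with 1716 tags in shControl, 1422 in shSpt4, 1782 in shSpt5 and 1642 in shNelfE. Only 2.3% of its 1 kb tiles were empty, and its ratios of 0.992 (0.924 to 1.07), 1.06 (0.988 to 1.13) and 1.03 (0.964 to 1.11) all had intervals that include 1. The next fullest were the windows on chromosome 17 from 85000001 (5707 tags) and on chromosome 6 from 99000001 (5657 tags). Next to the emptiest window were chromosome 14, 40000001 to 41000000, with 553 tags and 85.8% of tiles empty, and chromosome 4, 112000001 to 113000000, with 579 tags and 62.4% empty. The shSpt5 ratio was 1.16 (0.921 to 1.47) in the emptiest window and 1.21 (0.959 to 1.54) in that on chromosome 14. It was 1.84 (1.44 to 2.36) in the last. In the 2 emptiest windows the tags lay in the few tiles that were not empty, with fullest bins of 16 and 17 tags. Their low counts went with few tiles that held tags, so these 2 windows were not sparse where covered. Windows ran to the last tag of each chromosome, so the last window of a chromosome can reach past its end. Which of the named windows do so was not checked. In the median window 27.1% of the tiles were empty, against 9.1% in windows with a peak bin, and 25 of the 689 had empty tiles over at least 50% of their length. Empty tiles were counted from the same tags that the rule limits. Windows with fewer tags hold more of them even at equal covered length, and the part of this was not tested.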

How the data were processed

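The deposited values were aligned read positions on mm8, 1 signed number per read with the sign as its strand, not normalized, per the file headers. The headers name Bowtie as the aligner (-e 70 -k 2 -m 2 -n 2 -l 36). The Bowtie version and any removal of duplicates before deposit are not given in the sources used here. Only the first of the 2 read categories was used for ratios. One tag per position and strand was kept, which left 3170090 tags in shControl, 2938052 in shNelfE, 3116313 in shSpt5 and 2646944 in shSpt4.

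Tags were moved by 41 bp toward the fragment centre and counted in windows of 1000000 bp and bins of 250 bp (Python 3.11.15, numpy 2.4.6, scipy 1.17.1). Printed coordinates count from 1 and take the first base as position 0 of the files. Ratios used tags per 1000000 kept tags, with an exact binomial 95% interval of the tags given their sum, tested on simulated data. With 1 library a group there was no test. Samples were grouped by their knockdown label. Named windows were the longest runs, those with most and fewest tags, the 3 highest and lowest ratios to the control, and those nearest the limit of 20 tags. The windows, classes and comparisons were chosen with earlier results of these data known. The alternatives tried were other bin limits, tag minimums and scalings, all reads kept, unmoved tags, a shifted grid, and windows chosen on other libraries. Window genes were not analysed here, for want of a gene table on mm8.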

Additional observations from a re-analysis of the deposited data

Results flagged for a closer look

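The files hold a second category of reads, which the comparisons did not use and whose definition the headers do not state. In the windows without a peak bin these reads made up 7.91% of all reads in shControl (7.83 to 8.002%), 7.31% in shNelfE (7.24 to 7.39%), 7.09% in shSpt4 (7.01 to 7.17%) and 6.80% in shSpt5 (6.73 to 6.86%). In windows with a peak bin they made up 6.30%, 6.58%, 6.62% and 6.64%. They are given because they lie outside the comparisons, and no library of input DNA was used to set them against.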

How the results depend on the processing

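All 6 ratios kept their side of 1 under every alternative, and their exact values moved by more than counting error in many, since the sums are large. The values below are in the order shSpt4, shSpt5 and shNelfE to shControl, then shSpt5 to shSpt4, shNelfE to shSpt4 and shNelfE to shSpt5. With a peak bin set at 15 tags they were 1.32, 1.54, 1.27, 1.17, 0.962 and 0.825. At 30 tags they were 1.24, 1.41, 1.21 and 1.13, then 0.857 for the last. With at least 2000 tags in a window, 314 windows were left in place of 689, with 1.21, 1.36, 1.18, 1.12, 0.978 and 0.869; that minimum removes the sparsest windows, which had the highest ratios. All reads kept gave 1.32, 1.52 and 1.27, then 0.962 and 0.834 for the last pairs. Scaled to the tags of windows with a peak bin they were 1.33, 1.57, 1.28, 1.18, 0.962 and 0.815. A shifted grid moved shSpt5 to shControl to 1.47 and shNelfE to shSpt5 to 0.844. Windows chosen only on the libraries outside each comparison gave 1.27 in shSpt4 (735 windows), 1.49 in shSpt5 (666 windows) and 1.24 in shNelfE (694 windows). The pairs of knockdown libraries then gave 1.16, 0.965 and 0.831. For these windows the limits were scaled to the kept tags of the choosing libraries. The bin limit lay between 9.41 and 10.6 tags, and the window minimum between 235 and 265. Unmoved tags, and leaving out windows with at least 50% of their tiles empty (added after seeing the data), changed no value beyond counting error. The number of windows stayed between 576 and 813 apart from the minimum of 2000 tags. No paired analysis was possible because each group held 1 library. A single window held at least 104 tags in shControl, which limits what its ratio can show.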

Other observations

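Chromosome X was outside the rule. Of its 145 windows with at least 500 tags, 64 (44.1%) had no bin of 20 or more tags, with a median of 713 tags against 1915 on the autosomes. Their mean was 52.7 normalised tags in shControl, 68.0 in shNelfE, 72.4 in shSpt4 and 83.9 in shSpt5. The ratios to the control were 1.29 (1.26 to 1.33) in shNelfE, 1.37 (1.34 to 1.41) in shSpt4 and 1.59 (1.55 to 1.63) in shSpt5. With so few tags per window the same limits select other kinds of window on X, so the shares of X and the autosomes are not set against each other.

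Some comparisons share no library, and their ratios were set side by side over the 689 windows. The log2 ratio of shSpt4 to shControl and that of shNelfE to shSpt5 had a Pearson's r of -0.49 (Spearman's rho -0.44). The other pairs gave -0.26 (-0.25) for shSpt5 to shControl with shNelfE to shSpt4, and 0.30 (0.29) for shNelfE to shControl with shSpt5 to shSpt4. The windows share their covered length, density and base composition, so these values are descriptions.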
